A study of Mus musculus with 24 samples.

Results

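The 9 genes described here form the core of the Hedgehog signaling pathway in the mouse: the ligands *Dhh*, *Shh* and *Ihh*, the receptor *Ptch1*, the antagonist *Hhip*, the signal transducer *Smo* and the transcription factors *Gli1*, *Gli2* and *Gli3*. They were chosen by name for their place in the pathway from the 37310 genes annotated on mm9. ChIP-seq for H3K4me3 and H3K27me3 was performed in FACS-purified supporting cells of the fetal gonad, with total histone H3 as the control, to follow chromatin before and after sex determination. The 24 samples comprised 2 replicates of each of the 3 antibodies in each of 4 populations, and every replicate pooled cells from several embryos. The files compared here were 8 lists of called peaks, 1 for each of the 2 marks in each population.

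XY and XX progenitor cells came from male and female E10.5 gonads carrying *SF1-eGFP*, a reporter of the steroidogenic factor gene that labels somatic cells of the early gonad. Sertoli cells, the supporting cells of the testis, came from male E13.5 gonads carrying *Sox9-CFP*. Pregranulosa cells, their counterparts in the ovary, came from female E13.5 gonads carrying *TESM-CFP*, a reporter driven by a mutated *Sox9* enhancer. All embryos had a C57BL/6 x CD1 background, all carried a fluorescent reporter, and none of these samples was a mutant for *Cbx2* or another chromatin gene. The E10.5 and E13.5 cells differ in reporter as well as in stage, and the 2 cannot be told apart in a comparison between stages. Sertoli and pregranulosa cells likewise differ in reporter as well as in sex and cell type, which cannot be told apart in a comparison at E13.5.

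In Hedgehog signaling a secreted ligand binds Patched, which otherwise restrains Smoothened. Released Smoothened acts through the Gli proteins, of which GLI1 is an activator and GLI3 is mainly a repressor when no ligand is present. *Ptch1*, *Gli1* and *Hhip* are themselves induced by the signal in cells that receive it. In the fetal testis, Sertoli cells secrete Desert hedgehog, and the cells that respond to it are mainly the interstitial cells around the testis cords, among them the precursors of Leydig cells.

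H3K4me3 is a mark of active or poised promoters and H3K27me3 is the repressive mark placed by Polycomb Repressive Complex 2. A promoter was the window of 2 kb on either side of the transcription start site (TSS), 4001 bp in all, and it was counted as marked when a called region overlapped it by at least 1 bp. A promoter with both marks is called bivalent. Each list pooled both replicates and holds a constant score, so it gives where a mark was called and not how strong it was. No spread between replicates and no p-value between populations can be had from such lists, and every difference below is a difference between 2 pooled lists.

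The upstream sequences of 4 members are shown because they differ in the states described below: *Dhh*, the gene whose state differed between populations, *Ihh*, which carried H3K27me3 in all 4 populations, *Ptch1*, whose states depended on the start that was taken, and *Smo*, which carried no H3K27me3. Each sequence holds the 250 bases before the RefSeq transcription start, written 5′ to 3′ on the strand of the gene and placed on mm9 by exact match, with CpG dinucleotides in capitals.
Dhh: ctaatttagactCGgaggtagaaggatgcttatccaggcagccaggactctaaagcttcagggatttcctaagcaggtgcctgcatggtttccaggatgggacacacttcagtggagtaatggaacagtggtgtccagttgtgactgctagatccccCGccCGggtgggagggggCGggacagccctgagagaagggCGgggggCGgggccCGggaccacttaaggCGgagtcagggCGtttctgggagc
Ihh: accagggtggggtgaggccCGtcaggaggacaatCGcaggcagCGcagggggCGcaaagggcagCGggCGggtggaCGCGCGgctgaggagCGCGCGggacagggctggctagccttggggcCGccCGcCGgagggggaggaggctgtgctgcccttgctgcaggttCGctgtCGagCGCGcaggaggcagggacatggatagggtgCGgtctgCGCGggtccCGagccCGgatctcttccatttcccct
Ptch1: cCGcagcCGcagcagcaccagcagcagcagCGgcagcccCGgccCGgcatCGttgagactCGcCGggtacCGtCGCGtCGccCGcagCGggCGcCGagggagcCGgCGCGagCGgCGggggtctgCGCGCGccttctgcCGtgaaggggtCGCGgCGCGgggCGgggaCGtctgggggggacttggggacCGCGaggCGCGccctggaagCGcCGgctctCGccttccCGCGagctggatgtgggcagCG
Smo: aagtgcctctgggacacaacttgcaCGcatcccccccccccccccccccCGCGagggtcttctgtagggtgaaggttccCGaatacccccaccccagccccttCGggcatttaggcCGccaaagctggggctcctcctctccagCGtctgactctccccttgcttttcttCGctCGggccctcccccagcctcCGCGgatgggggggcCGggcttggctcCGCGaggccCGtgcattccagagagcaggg
The *Dhh* stretch lies on the minus strand at chr15:98728972-98729221 and holds 9 CpGs at a GC content of 59.6%. The *Ihh* stretch, on the minus strand at chr1:74998247-74998496, holds 24 CpGs at 72% GC. That of *Ptch1*, on the minus strand at chr13:63667044-63667293, is the richest, with 41 CpGs at 78.4% GC. That of *Smo*, on the plus strand at chr6:29685247-29685496, holds 15 CpGs at 68.4% GC. All 4 stretches lie upstream of the first exon of the transcript from which RefSeq counts, and the *Ptch1* stretch lies inside the gene as annotated on mm9, because the RefSeq start is 7431 bp downstream of the most upstream start. It lay outside the H3K27me3 regions of all 4 lists.

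All 9 Hedgehog promoters carried H3K4me3 in all 4 populations. Over the 21418 autosomal protein-coding genes, the share with H3K4me3 was 64.8% in the XY and 66.7% in the XX progenitor list, 65.5% in the Sertoli list and 67% in the pregranulosa list. H3K27me3 divided the genes. It covered 7 of the 9 promoters in XY progenitor cells, where the share of all genes was 23.6%, and 7 in XX progenitor cells, where it was 22.8%. It covered 6 in Sertoli cells, against 24.2% of all genes, and 7 in pregranulosa cells, against 22.1%. The exact (Clopper-Pearson) 95% interval of the first of these shares ran from 64.2% to 65.4%, and such intervals cover counting error only.

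*Shh*, *Ihh*, *Ptch1*, *Gli1*, *Gli2* and *Hhip* were bivalent in all 4 populations, 6 of 9 genes, whereas 14% of all genes were bivalent throughout. *Smo* and *Gli3* were marked by H3K4me3 only in all 4 populations, as were 38.2% of all genes. *Dhh* alone among the 9 differed between populations. It was bivalent in XY progenitor, XX progenitor and pregranulosa cells and H3K4me3-only in Sertoli cells, a set of states held by 327 genes or 1.53% of all. Thus 1 of the 9 genes was without H3K27me3 in Sertoli cells after carrying it in XY progenitor cells, against 5.29% of all genes, and 0 of the 9 showed the opposite, against 5.87%. Across all 4 populations, every member with H3K27me3 was bivalent. Bivalent promoters numbered 7, 7, 6 and 7 in the order XY progenitor, XX progenitor, Sertoli and pregranulosa, with 20.9%, 21.4%, 19.2% and 19.6% of all genes in this state, and H3K4me3-only promoters numbered 2, 2, 3 and 2, with 43.9%, 45.3%, 46.3% and 47.5% of all genes. At E13.5, 1 of the 9 genes, *Dhh*, had H3K27me3 in pregranulosa and not in Sertoli cells, as had 2.96% of all genes, and 0 of the 9 had it in Sertoli and not in pregranulosa cells, against 5.11%. No member had it in pregranulosa cells only, a pattern of 1.09% of all genes. From XX progenitor to pregranulosa cells, 0 of the 9 promoters lost the call, against 4.22% of all genes, and 0 of the 9 gained it, against 3.42%. The plot of promoter cover shows these states gene by gene.

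**Figure D1:**
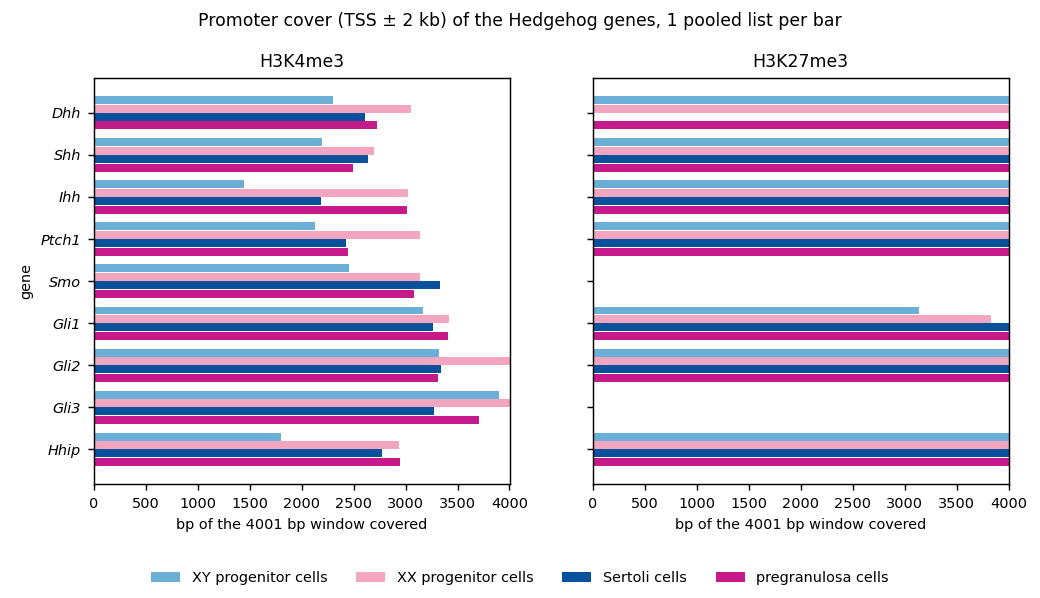
Bases of the 4001 bp promoter window (x axis, bp) covered by called H3K4me3 regions (left) and H3K27me3 regions (right) for each of the 9 Hedgehog genes (y axis), with 1 bar for the pooled list of each population and no error, since each bar is 1 list. The only gene with H3K27me3 bars in some populations and none in another is *Dhh*, which has 4001 bp in 3 populations and 0 bp in Sertoli cells.

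*Dhh* encodes Desert hedgehog, the Hedgehog ligand of Sertoli cells. The gene (ENSMUSG00000023000.4) occupies 5510 bp of the minus strand at chr15:98723462-98728971, with 1 annotated TSS at its upstream end. H3K27me3 covered all 4001 bp of its promoter in both progenitor populations and in pregranulosa cells, and 0 bp in Sertoli cells. The whole gene followed its promoter, with 100% of the gene body inside an H3K27me3 region in each of the first 3 populations and 0% in Sertoli cells. The nearest H3K27me3 region in Sertoli cells began 86571 bp from the *Dhh* TSS. The Sertoli H3K27me3 list drew on 44446456 tags, the most of the 3 lists that state their depth, and the XY progenitor list in which *Dhh* was covered drew on 6470151.

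Where it was present, the H3K27me3 region at *Dhh* was a single block with similar limits in each population. It was 16702 bp wide in XY progenitor cells, from 3626 bp upstream to 13075 bp downstream of the TSS. In XX progenitor cells it was 14044 bp wide, from 3879 bp upstream to 10164 bp downstream. In pregranulosa cells it was 15282 bp wide, from 3784 bp upstream to 11497 bp downstream. The upstream edge thus lay between 3626 bp and 3879 bp from the TSS in 3 separate lists, and the width exceeded that of 90.8%, 78.8% and 79% of the H3K27me3 regions of the respective lists. *Dhh* was the only protein-coding gene with its start inside the block. The nearest protein-coding genes on either side, *Rhebl1* at a distance of 11626 bp and *Lmbr1l* at 5380 bp, had H3K4me3-only promoters in all 4 populations.

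H3K4me3 was present at *Dhh* throughout. At E10.5 it covered 2306 bp of the promoter in the XY and 3051 bp in the XX population, and at E13.5 2610 bp in Sertoli and 2721 bp in pregranulosa cells. The Sertoli value lay between the others, so the promoter did not stand out in Sertoli cells by the extent of H3K4me3. Of the gene body, H3K4me3 covered 79.5%, 92.5%, 93.5% and 97.3% in the same order. A region of H3K4me3 reached from upstream of the TSS almost to the end of the gene in 3 lists, with a width of 6145 bp in XX progenitor, 5759 bp in Sertoli and 6082 bp in pregranulosa cells, wider than 98.3%, 98.5% and 98.3% of the regions of those lists. In XY progenitor cells the same stretch was called as separate peaks, of which the one at the TSS was 1769 bp wide. Over 100 kb to either side of the TSS, called H3K4me3 summed to 32747 bp, 44991 bp, 62382 bp and 49154 bp in the same order, the most in Sertoli cells, and H3K27me3 to 35401 bp, 28508 bp, 13430 bp and 29761 bp, the least in Sertoli cells. The map of the *Dhh* locus sets the 8 lists side by side.

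**Figure D2:**
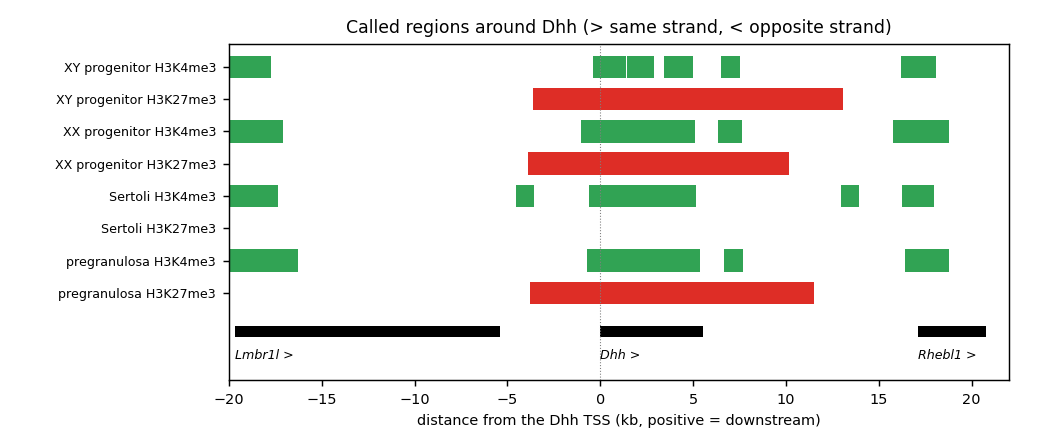
Called regions of H3K4me3 (green) and H3K27me3 (red) in the 4 populations from 20 kb upstream to 22 kb downstream of the *Dhh* TSS (x axis, kb, dotted line at the TSS), with protein-coding genes in black. The H3K27me3 block over *Dhh*, 14044 to 16702 bp wide in 3 populations, has no counterpart in the Sertoli row, while H3K4me3 is called over the TSS in every row.

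*Shh* encodes Sonic hedgehog, the ligand that patterns the limb and neural tube. The gene (ENSMUSG00000002633.3, chr5:28783355-28793641, minus strand) was bivalent in every population, with 4001 bp of its promoter and 100% of its body under H3K27me3 in all 4 lists. The region over it measured 19439 bp in the XY and 22830 bp in the XX progenitor list, 25378 bp in the Sertoli list and 21764 bp in the pregranulosa list. No other H3K27me3 region was called within 100 kb of its TSS in any list. H3K4me3 covered 2193 bp, 2694 bp, 2639 bp and 2498 bp of the promoter in the same order. *Shh* therefore kept in Sertoli cells the block that *Dhh* was without.

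*Ihh* encodes Indian hedgehog, the ligand of growth plate cartilage and, in the adult ovary, of granulosa cells. The gene (ENSMUSG00000006538.8, chr1:74991891-74998246, minus strand) had 4001 bp of promoter and 100% of its body under H3K27me3 in all 4 populations, pregranulosa cells included. H3K4me3 at its promoter covered 1451 bp in the XY and 3028 bp in the XX progenitor list, 2185 bp in the Sertoli list and 3011 bp in the pregranulosa list. Both XX populations thus had more than both XY populations. The same order of progenitor cells was general, as 86.1% of the 13381 genes with H3K4me3 in all 4 lists had more of it in XX than in XY progenitor cells, whose H3K4me3 lists drew on 49254553 and 10162534 tags. At E13.5, 31.1% of these 13381 genes had more H3K4me3 in Sertoli than in pregranulosa cells. The part of depth in the *Ihh* values was not tested.

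The H3K27me3 region over *Ihh* was 34025 bp wide in XY progenitor cells, 36271 bp in XX progenitor cells and 33360 bp in pregranulosa cells, and it held the starts of *Ihh* and *Ccdc108*. In Sertoli cells it was 133964 bp wide and also held the starts of *Cdk5r2*, *Fev* and *Cryba2*. The 3.94-fold difference between Sertoli and XY progenitor cells exceeded that of 96.7% of the 3499 genes with promoter H3K27me3 in all 4 lists, for which the median ratio was 1.28. The Sertoli region ended 120822 bp downstream of the TSS, so cover counted within 100 kb leaves out part of it. Within 100 kb of the TSS the cover was 106735 bp in 5 regions in XY progenitor cells, 92589 bp in 3 regions in XX progenitor cells, 103264 bp in 3 regions in pregranulosa cells and 113142 bp in 1 region in Sertoli cells.

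*Ptch1* encodes Patched 1, the receptor that binds all Hedgehog ligands. The gene (ENSMUSG00000021466.5, chr13:63610261-63674474, minus strand) has 4 annotated transcription starts, and the states of its promoter depended on which was taken. At the most upstream one H3K27me3 covered all 4001 bp of the window in every population. H3K4me3 there covered 2127 bp in the XY progenitor list, 3143 bp in the XX progenitor list, 2427 bp in the Sertoli list and 2446 bp in the pregranulosa list. The H3K27me3 region was 8813 bp, 13168 bp, 13258 bp and 14235 bp wide in the same order. It reached to both sides of the TSS and covered 5.52%, 10.3%, 8.45% and 10.2% of the 64214 bp gene body.

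At the RefSeq start, 7431 bp into the gene, the picture was different. H3K4me3 covered all 4001 bp of that window in all 4 populations, as part of a region 7271 bp to 8908 bp wide that began between 3142 bp and 3932 bp downstream of the upstream TSS. H3K27me3 covered 0 bp in XY progenitor and Sertoli cells, 1189 bp in XX progenitor cells and 1092 bp in pregranulosa cells. By this start *Ptch1* would be H3K4me3-only in both XY populations and bivalent in both XX populations. At the annotated start 7646 bp into the gene these states were the same. At the one 8840 bp into it, H3K27me3 covered 0 bp and H3K4me3 4001 bp in all 4 populations. The start 58849 bp into the gene had neither mark in its window. The H3K27me3 region ended 3543 bp downstream of the upstream TSS in XY progenitor cells, 5427 bp in Sertoli cells, 6619 bp in XX progenitor cells and 6522 bp in pregranulosa cells. The difference at the RefSeq start is therefore one of where the region ended. The lists that state a peak size for H3K27me3 give 5000 bp. The map of *Ptch1* and the *Gli* genes shows these regions.

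*Hhip* encodes the Hedgehog-interacting protein, a membrane antagonist that binds the ligands. The gene (ENSMUSG00000064325.3, chr8:82490014-82581905, minus strand) was bivalent throughout with 4001 bp of promoter H3K27me3 in each list. Its region measured 8880 bp in the XY and 7505 bp in the XX progenitor list, 9259 bp in the Sertoli list and 10544 bp in the pregranulosa list. H3K4me3 covered 1799 bp, 2935 bp, 2771 bp and 2949 bp of the promoter in the same order, the lowest value being that of the XY progenitor list, which has the fewest tags of the 3 lists that state their depth. *Hhip* thus had a called H3K27me3 region over its promoter in all 4 supporting cell populations. Whether these cells responded to the ligand was not tested.

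*Smo* encodes Smoothened, the transducer that Patched restrains. The gene (ENSMUSG00000001761.6, chr6:29685694-29711365, plus strand) had H3K4me3 and no H3K27me3 at its promoter or in its body in all 4 populations. H3K4me3 covered 2461 bp, 3140 bp, 3332 bp and 3082 bp of the promoter in XY progenitor, XX progenitor, Sertoli and pregranulosa cells. The nearest H3K27me3 region was 36420 bp, 37350 bp and 37193 bp from the TSS in XY progenitor, XX progenitor and pregranulosa cells, and 4354 bp from it in Sertoli cells. The Sertoli region stopped short of the promoter window. *Tspan33*, the nearest protein-coding gene on its upstream side, was bivalent in all 4 populations.

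The 3 *Gli* genes, which encode the transcription factors at the end of the pathway, did not share a state. *Gli3* (ENSMUSG00000021318.9, chr13:15555068-15821859, plus strand) had H3K4me3 only, over 3899 bp, 4001 bp, 3274 bp and 3708 bp of its promoter in XY progenitor, XX progenitor, Sertoli and pregranulosa cells. It had no H3K27me3 within 100 kb of its TSS in any list, and the nearest region was 293537 bp away in Sertoli cells. *Gli1* and *Gli2* were bivalent in every population.

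At *Gli1* (ENSMUSG00000025407.5, chr10:126766945-126778645, minus strand), H3K27me3 covered 3140 bp of the promoter in XY progenitor cells, 3834 bp in XX progenitor cells and all 4001 bp in Sertoli and pregranulosa cells. Its region was 5001 bp wide in both progenitor lists, a width that all but 1 region of each of those lists reached or exceeded, 9053 bp in pregranulosa cells and 25232 bp in Sertoli cells. The gene body was covered to 51% in the XY and 43.7% in the XX progenitor list, 68.8% in pregranulosa cells and 100% in Sertoli cells. *Gli1* thus had the largest ratio of width between stages in the XY lineage among the 6 members with a region in both lists. The Sertoli region was 5.05 times as wide as that of XY progenitor cells, a ratio above that of 98.1% of the 3499 genes. The pregranulosa region was 1.81 times as wide as that of XX progenitor cells, above 92.5% of them, where the median ratio was 1.13.

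A second H3K27me3 region began inside the 3′ part of *Gli1*, where it contributed to the cover of the gene body, and ran over *Arhgap9*, from 9590 bp to 22771 bp after the *Gli1* TSS in XY progenitor cells, from 9756 bp to 22633 bp in XX progenitor cells and from 8361 bp to 22527 bp in pregranulosa cells. In Sertoli cells there was no gap between the blocks, and 1 region ran from 4381 bp upstream to 20850 bp downstream. Within 100 kb of the TSS, H3K27me3 covered 24440 bp, 25940 bp, 45962 bp and 32500 bp in XY progenitor, XX progenitor, Sertoli and pregranulosa cells, so the cover itself was also highest in Sertoli cells. *Inhbe*, the nearest protein-coding gene on the upstream side of *Gli1* at 7812 bp, had 3340 bp of H3K27me3 at its promoter in Sertoli cells and 0 bp in the other 3 lists. H3K4me3 at the *Gli1* promoter was nearly the same in all lists, at 3168 bp, 3415 bp, 3269 bp and 3410 bp. The H3K27me3 lists drew on 6470151 tags in XY progenitor, 33185400 in XX progenitor and 44446456 in Sertoli cells. The part of depth in the widths of the *Gli1* region was not tested.

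At *Gli2* (ENSMUSG00000048402.8, chr1:120730709-120950196, minus strand), all 4001 bp of the promoter were under H3K27me3 in each list. The region was 8344 bp, 9035 bp, 11549 bp and 11527 bp wide in XY progenitor, XX progenitor, Sertoli and pregranulosa cells. The E13.5 lists differed at *Gli2* inside the gene. An annotated internal start, 71031 bp downstream of the first, had H3K4me3 over 2580 bp, 3100 bp and 1887 bp of its window in XY progenitor, XX progenitor and pregranulosa cells and 0 bp in Sertoli cells. H3K27me3 at this internal start was the reverse, with 4001 bp in Sertoli cells, from a region of 10261 bp, and 0 bp in the other 3 lists. Over the 219488 bp gene body H3K27me3 covered 5.56%, 2.94%, 15% and 3.51%, and H3K4me3 6.38%, 8.41%, 1.89% and 5.15%, in the same order. The Sertoli list thus had the most H3K27me3 and the least H3K4me3 across *Gli2*. The Sertoli H3K27me3 value was 8.15% when the widest 75% of regions, or equal numbers of regions, were kept. *Inhbb*, the neighbor on the upstream side at a distance of 361845 bp, was H3K4me3-only in Sertoli cells and bivalent in the other 3 populations.

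**Figure D3:**
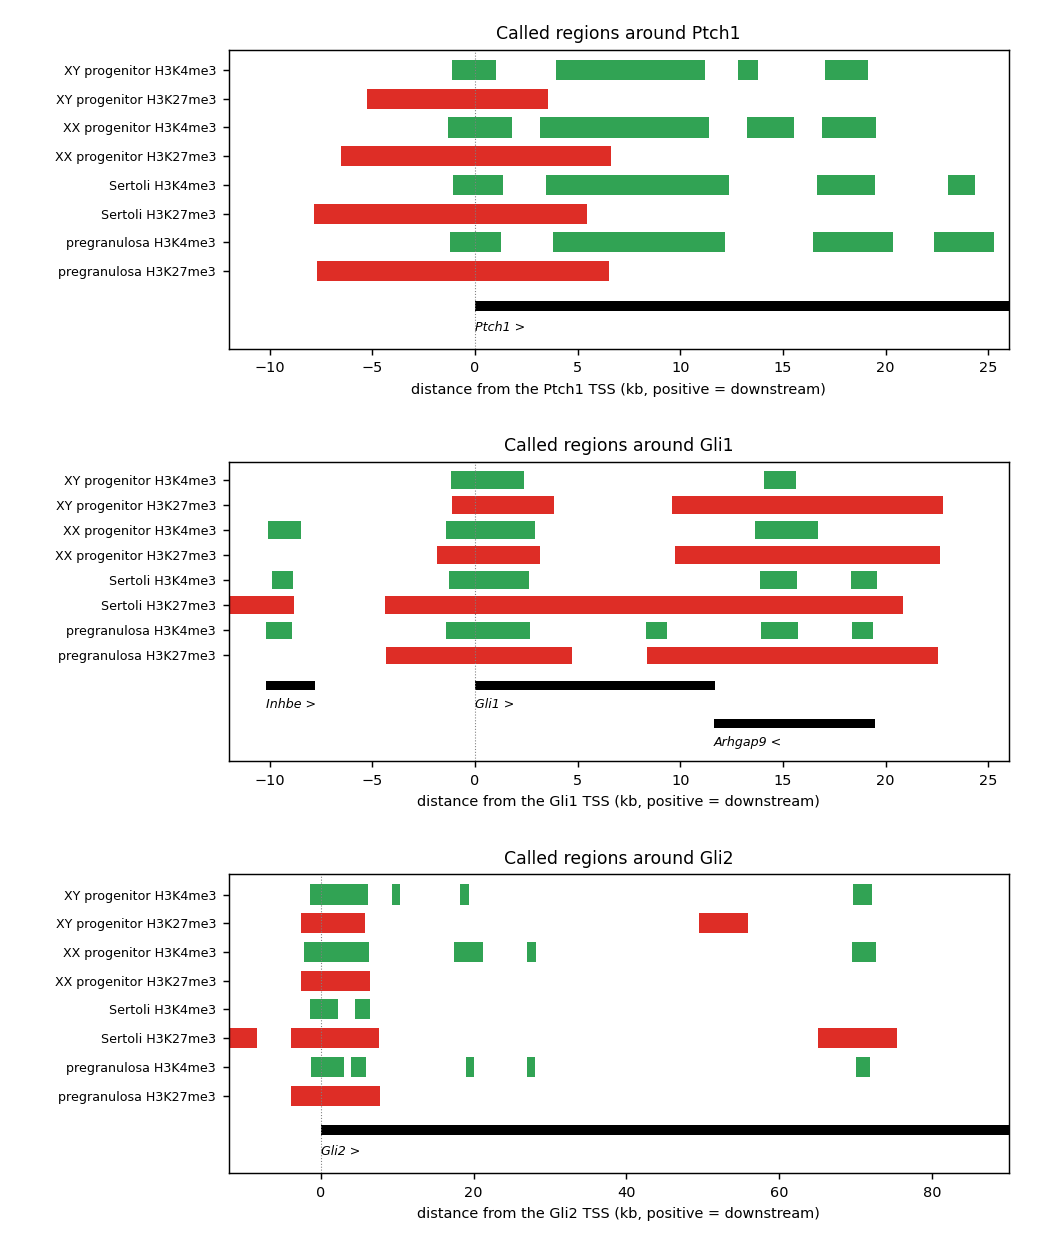
Called regions of H3K4me3 (green) and H3K27me3 (red) in the 4 populations around the TSS of *Ptch1*, *Gli1* and *Gli2* (x axes, distance from the TSS in kb, dotted line at the TSS), with protein-coding genes in black. At *Gli1* the 2 H3K27me3 blocks of the other lists form 1 block of 25232 bp in Sertoli cells, and at *Gli2* the internal start 71031 bp into the gene has H3K27me3 in Sertoli cells and H3K4me3 in the other 3.

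Among the 6 genes that were bivalent throughout, the width of the promoter H3K27me3 region was greater in Sertoli than in XY progenitor cells for each gene, by 1.04-fold at *Hhip* to 5.05-fold at *Gli1*. The median over the 3499 genes was 1.28. The ratio exceeded that of 25.9% of these genes at *Hhip*, 51.9% at *Shh* and 57.3% at *Gli2*. At *Ptch1* it exceeded 65.4% of them, at *Ihh* 96.7% and at *Gli1* 98.1%. The XY progenitor list drew on 6470151 tags and the Sertoli list on 44446456, and the part of depth in these ratios was not tested. From XX progenitor to pregranulosa cells the ratio was 0.953 at *Shh*, 0.92 at *Ihh* and above 1 at the other 4. H3K4me3 at the promoters of the 9 genes had medians of 2306 bp, 3140 bp, 2771 bp and 3011 bp in XY progenitor, XX progenitor, Sertoli and pregranulosa cells, beside 2241 bp, 2868 bp, 2590 bp and 2796 bp over the 13381 genes. The order of the lists was the same for both, and no member's H3K4me3 is read here as a change of that gene.

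The other genes of the pathway were taken from a list of 37 genes, of which 36 had a match by symbol. Of these 36, H3K4me3 marked 34 in each of the 4 populations, beside 64.8% to 67% of all genes. The exceptions were the ciliary genes *Kif27* and *Gpr161*, named after their values were seen. H3K27me3 marked 13 promoters in each progenitor population, 20 in Sertoli cells and 15 in pregranulosa cells, and every one of these promoters was bivalent. Over all genes, H3K27me3 marked 23.6% in XY progenitor, 22.8% in XX progenitor, 24.2% in Sertoli and 22.1% in pregranulosa cells. From XY progenitor to Sertoli cells, 7 of the 36 gained the H3K27me3 call, or 19.4% beside 5.87% of all genes. In the same comparison 0 were without it after carrying it, beside 5.29% of all genes. From XX progenitor to pregranulosa cells 3 gained it, or 8.33% beside 3.42%, and 1, *Igf1*, was without it, or 2.78% beside 4.22%.

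The products of *Boc*, *Cdon* and *Gas1* are coreceptors that help cells to bind the ligand. Of the 4 receptor-side genes, *Lrp2* was the 1 with H3K27me3 in XY progenitor, XX progenitor and pregranulosa cells, whereas 3 had it in Sertoli cells, with *Boc* and *Gas1* added, beside 24.2% of all genes with H3K27me3 there. The Sertoli regions were 9353 bp wide at *Boc* and 10460 bp at *Gas1*, where the region reached 1033 bp into the window without covering the TSS, so that it was not counted when the TSS itself had to lie in a region. *Cdon* was H3K4me3-only in all 4 populations. *Cdon* and *Lrp2* are named beyond the naming rule, after their values were seen.

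*Evc* and *Evc2*, which encode a pair of ciliary proteins that act downstream of Smoothened, had H3K27me3 in Sertoli cells only, but their starts lie 1584 bp apart and share 1 region of 6255 bp. With *Boc* and *Gas1* they made 4 of 36 genes, or 11.1%, with H3K27me3 in Sertoli cells and in none of the other lists, beside 3.28% of all genes. When all H3K27me3 lists were reduced to the same number of regions, 2 of these 4 remained, namely *Boc* and *Gas1*, beside 2.33% of all genes. The other 3 gains in Sertoli cells, *Scube3*, *Mycn* and *Nr2f2*, also named after their values were seen, were the 3 gains in pregranulosa cells. The gains followed a list with more H3K27me3 regions, 13313 in Sertoli cells against 9693 in XY progenitor cells, and the part of this difference in them was not tested.

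Of the 5 genes of ligand release, H3K27me3 marked 3 in both progenitor populations and 4 in both E13.5 populations. The share of all genes with H3K27me3, for this and the next groups, was 23.6%, 22.8%, 24.2% and 22.1% in XY progenitor, XX progenitor, Sertoli and pregranulosa cells. *Disp2*, a relative of the gene for the Dispatched protein that releases the lipid-bearing ligand, was bivalent throughout, with a region of 22479 bp in the XY and 19724 bp in the XX progenitor list, 43426 bp in the Sertoli list and 18381 bp in the pregranulosa list. Of the 16 cytoplasmic and ciliary genes, 1 had H3K27me3 outside Sertoli cells and 3 had it in Sertoli cells. Of 11 genes known as Hedgehog targets in other tissues, 8, 8, 10 and 9 had H3K27me3 in XY progenitor, XX progenitor, Sertoli and pregranulosa cells. The cyclin genes *Ccnd1* and *Ccnd2* and the forkhead genes *Foxf1a*, *Foxf2*, *Foxc2* and *Foxl1* were bivalent in all 4. At *Ccnd2* H3K27me3 covered 4001 bp of the window in both progenitor lists, 690 bp in Sertoli and 453 bp in pregranulosa cells. The *Ccnd2* regions of the E13.5 lists did not cover the TSS. *Foxc2* and *Foxl1* lie in the same H3K27me3 region and are not independent. *Igf1*, a growth factor gene, was H3K4me3-only in pregranulosa cells and bivalent in the other 3 populations.

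**Figure D4:**
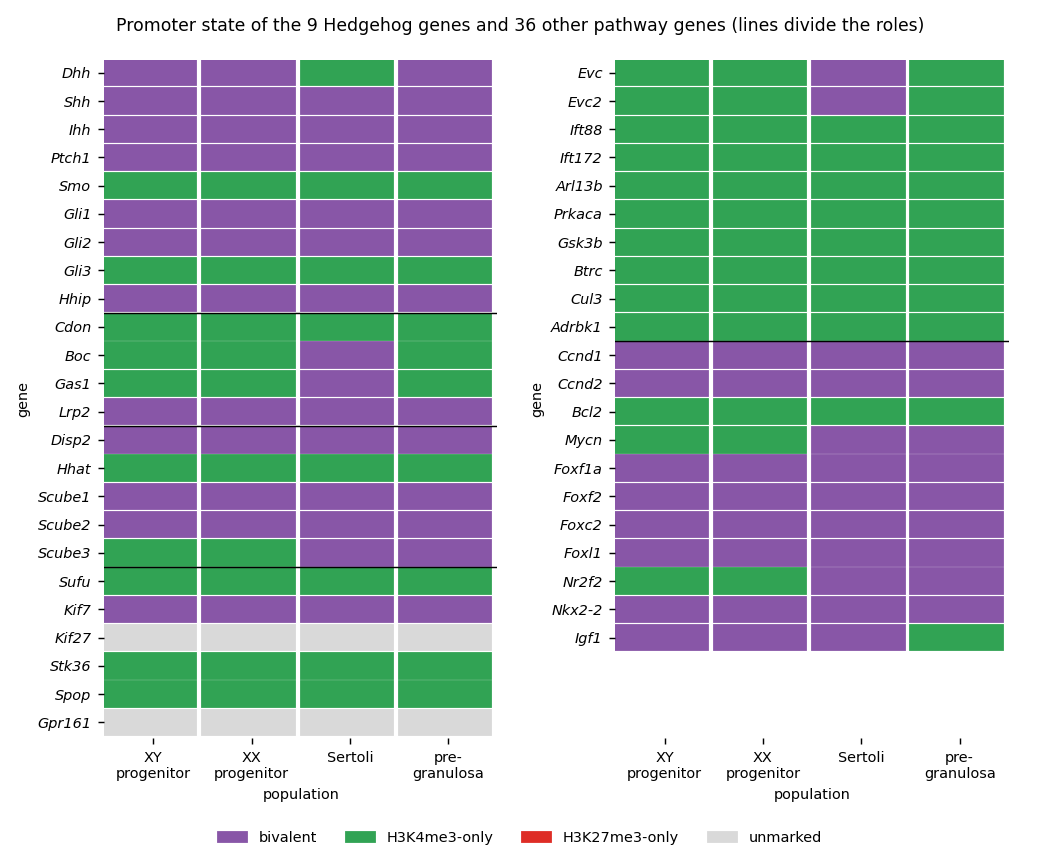
Promoter state of the 9 Hedgehog genes (top left) and of 36 other pathway genes by role (receptor side, ligand release, cytoplasmic and ciliary, targets elsewhere; y axis) in the 4 populations (x axis), with 1 colored cell for each gene and population. *Dhh* is bivalent everywhere except in Sertoli cells, and *Boc*, *Gas1*, *Evc* and *Evc2* are bivalent only in Sertoli cells.

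The genes whose pattern was most like that of *Dhh* were found by the Euclidean distance over 8 values, the share of the promoter window covered in each of the 8 lists. They were *Mkrn1* at a distance of 0.0379, *Hecw2* at 0.0639 and *Ptk2b* at 0.087. *Mkrn1* encodes a ubiquitin ligase, *Hecw2* a ubiquitin ligase of the HECT type and *Ptk2b* a tyrosine kinase. In each, H3K27me3 covered 4001 bp in the progenitor and pregranulosa lists and 0 bp in Sertoli cells, and H3K4me3 covered between 2170 bp and 3080 bp in all lists. This likeness describes 8 pooled lists and is a likeness in cover alone.

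The promoters of the 9 genes differed in CpG content, which was computed over the same 4001 bp windows on mm9. *Dhh* had the lowest ratio of observed to expected CpG, 0.29, with 78 CpGs in the window. *Hhip* had 0.42, *Shh* 0.44, *Gli1* 0.45, *Ptch1* 0.53, *Smo* 0.55, *Gli2* 0.57, *Ihh* 0.63 and *Gli3* 0.76. The value of *Dhh* exceeded that of 38.6% of all genes and that of *Gli3* exceeded that of 97.8%. In XY progenitor cells the median ratio was 0.46 for bivalent, 0.47 for H3K4me3-only, 0.23 for H3K27me3-only and 0.17 for unmarked promoters. Among the 327 genes with the states of *Dhh* the median was 0.50, with quartiles of 0.40 and 0.61, so *Dhh* lay below the lower quartile. The H3K4me3-only genes *Smo* and *Gli3* had values on both sides of that of bivalent *Gli2* and *Ihh*, and CpG content did not part the members by state.

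**Figure D5:**
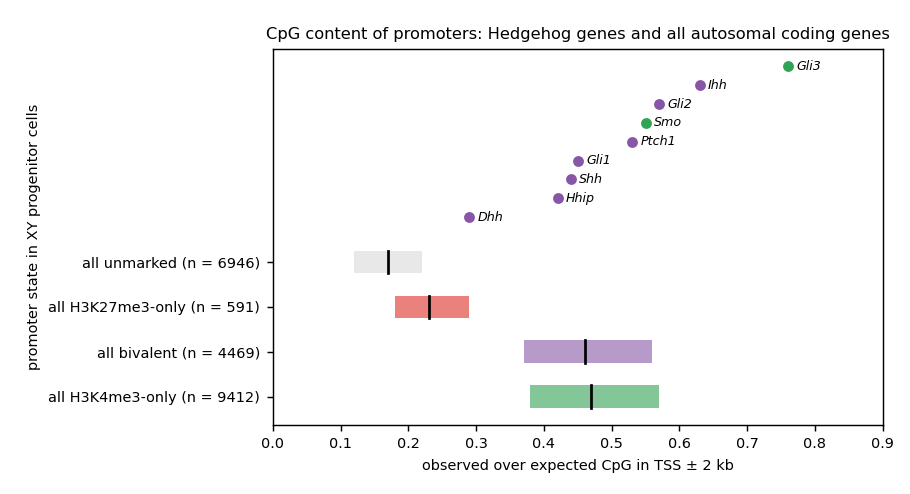
Ratio of observed to expected CpG (x axis) in the 4001 bp promoter windows of the 9 Hedgehog genes (points, colored by state in XY progenitor cells: purple bivalent, green H3K4me3-only) and of all autosomal protein-coding genes by promoter state in XY progenitor cells (y axis; bars from the first to the third quartile, black line at the median). *Dhh*, at 0.29, lies below the other 8 members and below the bars of bivalent and H3K4me3-only promoters.

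The labels of the populations were compared with promoter states of marker genes. Of 8 Sertoli markers, 7 were H3K4me3-only in Sertoli cells and 1 in pregranulosa cells. Of 8 pregranulosa markers, 8 carried H3K27me3 in Sertoli cells and 5 in pregranulosa cells. Of 4 endothelial and blood markers, 0 had H3K4me3 in the progenitor and Sertoli lists and 1, *Cdh5*, had it in pregranulosa cells. Of 5 Leydig and steroidogenic markers, 2 to 4 had H3K4me3, and of 4 germ cell markers 1 or 2 had it. H3K27me3 marked 1 of the 5 Leydig and steroidogenic markers, *Insl3*, in each list. Of 6 genes of the early gonad, H3K27me3 marked 5 in the XY and 6 in the XX progenitor list, 3 in the Sertoli list and 1 in the pregranulosa list, and 6 of 6 had H3K4me3 throughout. A mixture of cells with different states cannot be told apart from both marks in the same cells, here and at each bivalent promoter above.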

How the data were processed

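ChIP-seq libraries for H3, H3K4me3 and H3K27me3 were made from FACS-purified cells by the study. The authors' notes name Trim Galore, Bowtie, SAMtools and HOMER, with reads aligned to mm9. The deposited files are BED lists of HOMER peaks called over H3 from both replicates pooled. Their score column, as the authors deposited it, is a constant and was not used, and the positions are the only other measurement. The headers of 6 lists give a fold threshold of 4 over the control, a Poisson p-value of 0.0001 and peak sizes of 1000 bp (H3K4me3) and 5000 bp (H3K27me3). The depth, thresholds and peak sizes of the 2 pregranulosa lists, which lack a header, are unknown. The pregranulosa H3K27me3 list held 12609 peaks with no overlap between them. The XY progenitor, XX progenitor and Sertoli lists of this mark held 36469, 74001 and 74154 peaks, joined into 9693, 9309 and 13313 regions. The part of this difference in form in the region widths was not tested.

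The lists were called from 10162534 H3K4me3 and 6470151 H3K27me3 tags for XY progenitor cells, 49254553 and 33185400 for XX progenitor cells, and 31104760 and 44446456 for Sertoli cells. Overlapping peaks of a list were joined. The TSS was the upstream end of the gene record in GENCODE M1 on mm9 (NCBIM37), and positions count from 1. Upstream sequences are from the RefSeq promoter table, whose own build is GRCm38.p6, and were placed on mm9 by exact match. It had an entry for 7 of the 9 genes, *Shh* and *Gli1* being the others. *Disp1* was the listed pathway gene without a match, and *Foxl1*, annotated as a pseudogene, was taken by symbol. Another gene of the pathway is not reported here and was left out of all counts.

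All 9 members were named. Other pathway genes were named if they had H3K27me3 in any list or differed in state between Sertoli and pregranulosa cells, at most 12, ordered by the number of lists that differ between these cells and then by symbol. The neighbors and the 3 genes nearest to *Dhh* were also named. The members and all lists were chosen with earlier results of these data known. No test between populations was made. Alternatives changed the overlap, the window, the regions kept, the joining of peaks, the start and the background. The scripts were tested on simulated data. Scripts ran under Python 3.11.15 with pysam 0.24.0 for sequences, matplotlib 3.10.9 for figures, SciPy 1.17.1 for intervals and NumPy 2.4.6.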

Additional observations from a re-analysis of the deposited data

Results flagged for a closer look

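At 7 of the 9 genes, H3K4me3 covered more of the promoter in Sertoli than in XY progenitor cells and less of it in pregranulosa than in XX progenitor cells, and this opposite movement in the 2 sexes is why they are listed. The Sertoli minus XY progenitor differences were 304 bp at *Dhh*, 446 bp at *Shh*, 734 bp at *Ihh*, 300 bp at *Ptch1*, 871 bp at *Smo*, 101 bp at *Gli1* and 21 bp at *Gli2*. The pregranulosa minus XX progenitor differences were -330 bp at *Dhh*, -196 bp at *Shh*, -17 bp at *Ihh*, -697 bp at *Ptch1*, -58 bp at *Smo*, -5 bp at *Gli1* and -689 bp at *Gli2*. The difference between the sexes was not tested, because each value comes from 1 pooled list. The same opposite movement was seen at 35.6% of the 13381 genes with H3K4me3 in all 4 lists. The XY progenitor list drew on 10162534 tags, the XX progenitor list on 49254553 and the Sertoli list on 31104760, and the part of depth in these values was not tested.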

How the results depend on the processing

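No paired analysis was possible because each list pools both replicates, and for the same reason no replicate could be left out. The state of each of the 9 promoters was recomputed under 8 alternatives. *Dhh* kept its 4 states under all 8. With the widest 75% of regions, the 5001 bp region of *Gli1* left the XX progenitor list, which lowered the cover of its gene body there from 43.7% to 16.6%. *Gli1* was then not bivalent throughout, and 6 promoters had H3K27me3 in XX progenitor cells instead of 7. As a result, 1 of the 9 genes gained H3K27me3 from XX progenitor to pregranulosa cells instead of 0. With the RefSeq start, chosen after seeing the data, *Ptch1* was H3K4me3-only in XY progenitor and Sertoli cells, and so was not bivalent throughout. H3K27me3 then marked 6 promoters in XY progenitor cells instead of 7, and 5 in Sertoli cells instead of 6. Apart from the gain from XX progenitor to pregranulosa cells, the 16 counts over the 9 genes stayed within 1.5 times their value under all alternatives. Counts of 6, 7 or 9 out of 9 could not rise beyond that limit.

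Among the other pathway genes, 4 of the 7 gains in Sertoli cells remained both with the widest 75% of regions and with equal numbers of regions, 5 when the TSS itself had to lie in a region and 6 when every annotated start was used. Counted anew over the 36 genes, the gains were 5, 4, 6 and 6 under these alternatives in the same order. The share of all genes with this gain was 5.66%, 4.26%, 5.14% and 6.11%, and 5.87% before any change. Over every annotated gene the background share was 46.8% to 49.2% for H3K4me3 and 17.9% to 20.7% for H3K27me3. Having 1 pooled list for each mark and population limits all values to where peaks were called at the depth of that list, and the absence of a region does not show the absence of a mark.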
